A study of Mus musculus and Mus musculus
Oryx dammah with 30 samples.

Results

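The mitochondrially encoded genes are those whose gene name begins with mt- in the FPKM tables of the mouse nuclear transfer (NT) experiments. The four-cell C2C12 table and the table of the replication experiment each list 35 of them among 53023 genes, 13 mRNAs and 22 tRNAs, and the table of two-cell NT embryos lists 0 among 55364 genes. The tables used here list 0 mitochondrial rRNAs, which were therefore not analysed here. In the two-cell embryos the only readout of mitochondrial sequence was therefore a set of nuclear genes that carry it, above all the 7 genes of a copy of mitochondrial DNA on chromosome 1, which are described beside the members.

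NT embryos were made by fusing 2 C2C12 cells, a myoblast line of C3H mice, with each embryo of C57BL/6 oocytes and DBA/2 sperm, arrested with 0.1 µg/ml demecolcine, which blocks microtubule assembly. The four-cell C2C12 libraries were 3 with and 3 without α-amanitin, each from 3 pooled embryos that received donor cells at 46 hours post insemination (hpi) and were kept until 70 hpi. The replication experiment gave 3 libraries of the group D and 3 of DR, each from 4 pooled four-cell NT embryos. Which of the 2 letters stands for embryos that replicated their DNA is not stated in the labels, so D and DR are compared by name only. The two-cell libraries were 6 with and 6 without α-amanitin, each from 5 pooled embryos, and the labels name early embryos (NT at 21 hpi, kept until 45 hpi) and late ones (30 to 54 hpi), which the column names do not tell apart. Those columns fall into 2 sets, NT (3) with Am (3) and R (3) with RAm (3). The R columns were read as libraries without α-amanitin because their names lack Am, so the share of the copy, the ratios to spike-ins, the calls of the copy genes and the counts in lists of nuclear genes are also given for the NT and Am libraries alone.

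The mitochondrial genome is a small circle of which both strands are transcribed by a polymerase of its own, POLRMT, into long RNAs that are cut at the tRNAs lying between the mRNAs. The mRNAs encode subunits of respiratory complexes I (Nd genes), III (Cytb) and IV (Co genes) and of the ATP synthase (Atp genes). α-Amanitin blocks RNA polymerase II, which transcribes nuclear protein-coding genes. The mouse egg holds many mitochondria, and the embryo uses this stock through cleavage. The donor cell brings mitochondria of its own, so embryonic and donor mitochondrial RNA cannot be told apart in these pools, nor can fewer mitochondria and less RNA per mitochondrion.

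Several mt- genes have near-identical nuclear copies, from whose reads theirs can hardly be told apart. The largest copy lies on the minus strand of chr1:24611535-24616197 (mm10) and is annotated as 7 unprocessed pseudogenes. In GENCODE vM21 it matches the mitochondrial stretch chrM:6390-11042, from within mt-Co1 to within mt-Nd4, in the 4140 bases that could be aligned by gene. Gm28661 equals the first 681 bases of mt-Co2, Gm10925 the first 678 of mt-Atp6, Gm28437 the first 783 of mt-Co3, Gm10222 the first 294 of mt-Nd4l and Gm28439 the first 876 of mt-Nd4, each at 100% identity. Only 2 bases differ in all, 1 between mt-Nd3 and Gm28438 and 1 between mt-Co1 and Gm29216. Both differences are shown here because no other base of the aligned parts tells a mitochondrial gene from its copy. The differing base is in capitals, in T3C of mt-Nd3 and A1066T of mt-Co1, counted from the first base of the mitochondrial gene with its base first.
mt-Nd3 (chrM:9459-9487, plus strand): atTaacctgtacactgttatcttcattaa
Gm28438 (chr1:24613091-24613119, minus strand): atCaacctgtacactgttatcttcattaa
mt-Co1 (chrM:6390-6418, plus strand): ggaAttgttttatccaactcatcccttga
Gm29216 (chr1:24616160-24616188, minus strand): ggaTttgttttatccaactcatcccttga

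The start of mt-Atp6 is shown as well, because Gm10925, the copy with the highest FPKM in every library of the two-cell and replication tables, repeats it base for base, and because the same bases close mt-Atp8. The capitals mark the start codon of mt-Atp6. The overlap of mt-Atp8 and mt-Atp6, chrM:7927-7969, is 43 bases long, so reads there belong to both genes.
overlap of mt-Atp8 and mt-Atp6 (plus strand): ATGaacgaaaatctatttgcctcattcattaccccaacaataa
Gm10925 (chr1:24614622-24614651, minus strand): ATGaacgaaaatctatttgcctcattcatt

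In all 3 tables the values are FPKM, fragments per kilobase of gene and per 1000000 counted fragments. FPKM multiplied by gene length sums to 1000000 in each library, so the share of that sum is a share of counted reads. In the four-cell C2C12 table all values were whole multiples of 1 read to within 0.01 read, which gave 1136771 to 3101002 reads per library. In the other tables only 40.3% to 50.5% of the values per library were whole, so no read numbers are given for them. The 11 maternal markers of the embryo had signal in every group, as had 12 to 16 of 16 myoblast markers, and 8 markers of cumulus or granulosa cells summed to at most 5.52 FPKM in any library.

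Mitochondrial genes took a larger share of the four-cell libraries with α-amanitin. The share was 11.4% in library S16, 13.0% in S18 and 19.0% in S8 with α-amanitin, and 6.09% in S15, 5.76% in S17 and 5.88% in S7 without it. The groups did not overlap, and their means were 14.5% ± 3.98 with and 5.91% ± 0.171 without α-amanitin (SD, n = 3). Nearly all of it lay on mRNAs, since tRNAs made up at most 0.0264% of a library. The chromosome 1 copy held at most 0.0159%. The summed FPKM of the maternal markers moved the same way, from 12197 to 16108 with and 8726 to 9925 without α-amanitin, while the myoblast markers, at 190 to 2248 (median 499) and 223 to 717 (median 255), overlapped. Their part in the difference was not tested. These are shares of a total, the C2C12 table lists 0 spike-in RNAs, and in it more mitochondrial RNA cannot be told apart from less of the other RNA.

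**Figure D1:**
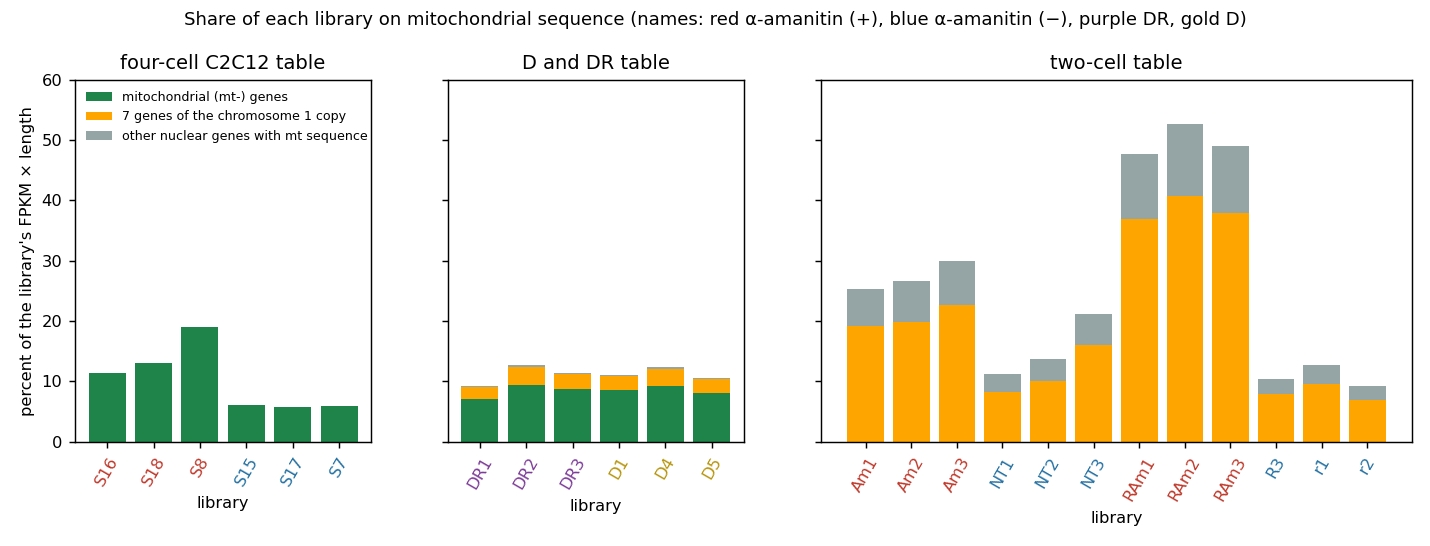
Share of FPKM × length in each library, in percent, on mt- genes (green), on the 7 genes of the chromosome 1 copy (orange) and on other nuclear genes with mitochondrial sequence (grey), with library names coloured by group. In the four-cell C2C12 table the green bars reach 11.4% to 19.0% with and 5.76% to 6.09% without α-amanitin, and the two-cell bars have no green part.

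In the replication experiment the share did not separate the groups. It was 7.05%, 9.38% and 8.75% in DR1, DR2 and DR3, and 8.56%, 9.31% and 8.02% in D1, D4 and D5. The means were 8.39% ± 1.21 for DR and 8.63% ± 0.647 for D (SD, n = 3), and the ranges overlapped. The summed myoblast markers, at 253 to 386 FPKM in DR and 467 to 556 in D, did not overlap, nor did the maternal markers, at 3381 to 4041 and 4575 to 5736, and their part in the values of the 2 groups was not tested. Here tRNAs took 0.192% to 0.250% of a library, and the chromosome 1 copy took a further 2.09% to 3.04%.

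The 13 mRNAs were read very unevenly in the four-cell C2C12 table. Of the 11 members that lie wholly inside the stretch copied on chromosome 1, 8 had at most 1 read in any library, namely mt-Co2, mt-Atp8, mt-Atp6, mt-Co3, mt-Nd4l, mt-Ts1, mt-Td and mt-Tk. The other 3 were mt-Nd3, which holds one of the differing bases, and its neighbours mt-Tg and mt-Tr. No copy was aligned for the tRNAs of the stretch, nor for mt-Atp8 outside its overlap with mt-Atp6. Theirs were inferred from position. Of the 22 members outside the stretch 3 had at most 1 read in any library, all of them tRNAs (mt-Tn, mt-Ty and mt-Th). The copy itself was also low there, with 14 to 108 reads on Gm10925. No statement on cytochrome oxidase subunits 2 and 3 or on the ATP synthase subunits can therefore be made from this table.

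In the replication table all 13 mRNAs had signal, and each copy stood at a nearly fixed ratio to its mitochondrial gene. FPKM of the copy over that of the mitochondrial gene was 1.03 to 1.04 for mt-Co2, 1.10 to 1.13 for mt-Atp6, 1.02 in the median for mt-Co3, 1.02 to 1.03 for mt-Nd4l and 0.872 to 0.901 for mt-Nd3. For the 2 genes copied in part it was 0.562 to 0.656 (mt-Co1) and 0.384 to 0.405 (mt-Nd4). The ranges are over the 6 libraries of D and DR. How reads with several matches were counted is not given in the sources used here, and many values of this table are not whole reads, so reads of a gene and reads of its copy cannot be told apart in these ratios or in the share of the copy. In the C2C12 table the ratio was at most 0.0733 for mt-Nd3, 0.00391 for mt-Co1 and 0.00197 for mt-Nd4. It was above 1 where the mitochondrial gene had 1 read, at 26.1 and 96.4 for mt-Atp6, 11.01 for mt-Co3 and 1.01 and 7.07 for mt-Nd4l, and could not be formed in the libraries where that gene was at 0.

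**Figure D2:**
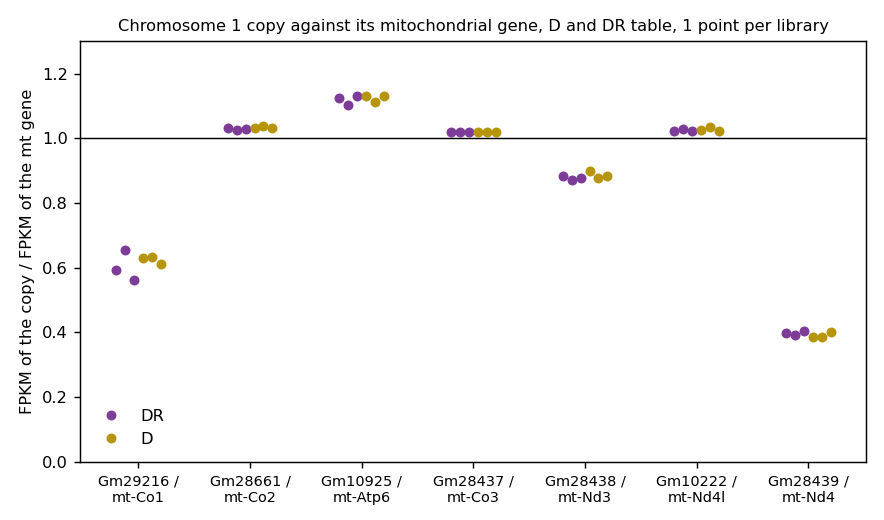
FPKM of each chromosome 1 copy divided by FPKM of its mitochondrial gene (vertical axis, no unit) for the 7 pairs, 1 point per library of the replication experiment, DR in purple and D in gold. The 4 genes copied nearly whole without a difference lie between 1.02 and 1.13, mt-Nd3 between 0.872 and 0.901, and the genes copied in part lower.

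Levels per length followed no single order along the genome. In the four-cell C2C12 table mt-Cytb, the mitochondrial subunit of complex III, was highest in all 6 libraries, with 41371, 39827 and 65666 FPKM with α-amanitin (S16, S18, S8) and 14581, 17961 and 20306 without it (S15, S17, S7). mt-Nd1 and mt-Nd2 of complex I followed it in this order in every library. mt-Nd3 was eighth, at 352 to 1318 FPKM. It lies wholly inside the copied stretch, and mt-Nd4 and mt-Co1 lie there in part. Most members inside that stretch had at most 1 read, so these levels and ranks are those of the table. mt-Nd6, the only mRNA on the other strand, stood seventh, at 1499 to 5167 FPKM. The strand setting is not given in the sources used here, so RNA of either strand cannot be told apart at mt-Nd6.

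In the replication table mt-Cytb ranged from 11714 to 17756 FPKM and mt-Atp6, which takes part in the proton channel of the ATP synthase, from 11248 to 15945. mt-Nd1 ranged from 9257 to 17138. The lowest were mt-Nd4l (1454 to 2125) and mt-Nd6 (1520 to 2938). mt-Atp6 stood second in all 6 libraries, while mt-Cytb led in 4 and mt-Nd1 in DR2 and D4, and the 3 ranges overlapped. A part of the reads is listed under the copies, so these levels are those of the table.

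**Figure D3:**
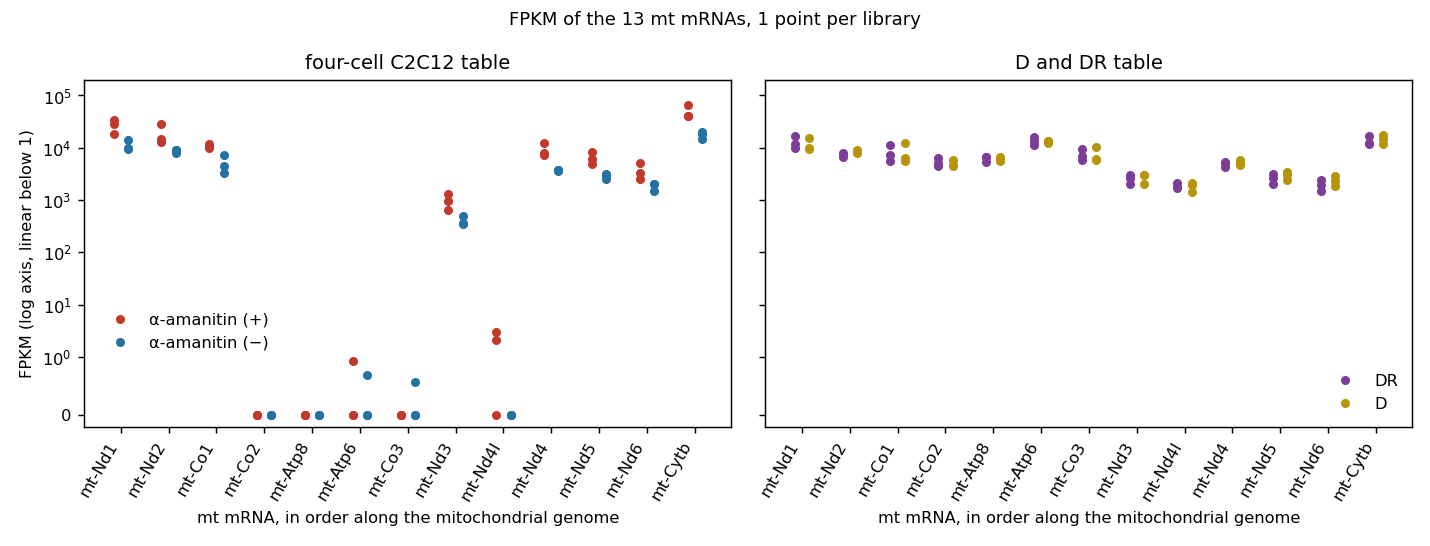
FPKM of the 13 mt mRNAs in their order along the mitochondrial genome, on a log axis that is linear below 1, with 1 point per library. Of the 13, 5 lie at or near 0 in the four-cell C2C12 table and mt-Cytb lies highest there, at 14581 to 65666, whereas in the table of D and DR all 13 lie between 1454 and 17756.

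Without α-amanitin, 13 of the 24 mitochondrial genes tested in four-cell C2C12 NT embryos were lower, and none was higher. The test was limma on log2(FPKM + 1) over all 9884 genes with at least 1 FPKM in at least 3 libraries, with Benjamini-Hochberg adjusted p-values, and 1.13% of all genes tested were called in this direction. The filter let through 8 of 13 mRNAs and 16 of 22 tRNAs. Of these, 7 mRNAs and 6 tRNAs were called, 0 of them with a 4-fold change, which 0.364% of all genes tested had in this direction. The count of 13 fell to 8 without S18, 6 without S15, 2 without S17 and 1 without S7, to 4 when no gene with signal was filtered out and to 7 by limma voom on whole reads, each time with all called genes lower without α-amanitin. In 18 of the 24 all libraries with α-amanitin lay above all without it, against 7.56% of all genes tested. The median log2 change of the 24 was -1.20, while that of all genes tested was 0.37.

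mt-Cytb changed most among the mRNAs, by a log2 of -1.45 (SE 0.22, limma adjusted p = 0.00824). Per library, mt-Nd1 had 18580, 28665 and 34677 FPKM with α-amanitin (S16, S18, S8) against 13866, 9861 and 9636 without it (S15, S17, S7), a log2 change of -1.27 (SE 0.25, limma adjusted p = 0.0173). mt-Nd4 had 7135, 7860 and 12215 FPKM with and 3561, 3826 and 3754 without α-amanitin, a change of -1.25 (SE 0.21, limma adjusted p = 0.0117). For each of the 3 genes the groups were apart.
The same held for the core subunit of cytochrome oxidase, mt-Co1, at 9921, 11693 and 10783 FPKM with and 7334, 4467 and 3296 without α-amanitin, a change of -1.18 (SE 0.27, limma adjusted p = 0.0272). mt-Nd2, mt-Nd3 and mt-Nd5, further subunits of complex I, fell by 1.03, 1.24 and 1.12 on the log2 scale, with limma adjusted p of 0.0448, 0.0262 and 0.0179. mt-Nd6 had a log2 change of -0.92 (SE 0.27) and missed the threshold, with a limma adjusted p of 0.0585. Its libraries did not overlap either.

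The tRNAs with the highest share of reads in the C2C12 table were mt-Tl1, mt-Tp and mt-Tt, which carry leucine, proline and threonine. mt-Tl1 had 159, 54 and 128 reads with α-amanitin (S16, S18, S8) and 51, 43 and 44 without it. All 3 were called, with log2 changes of -1.40 (SE 0.24), -1.49 (SE 0.24) and -1.36 (SE 0.25) and limma adjusted p of 0.0117, 0.00933 and 0.0148. mt-Tf, mt-Tv and mt-Ta were called as well, mt-Ta on 2 to 15 reads per library. Of the 7 genes of the chromosome 1 copy only Gm10925 was called, with a change of -1.71 (SE 0.39, limma adjusted p = 0.0268). This call was lost without S7, S8, S15 or S17, with no filter on low values and by limma voom (adjusted p of 0.0572 to 0.121). Polyadenylated RNA was primed in these libraries, and a read on a tRNA can come from a longer RNA that contains it.

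**Figure D4:**
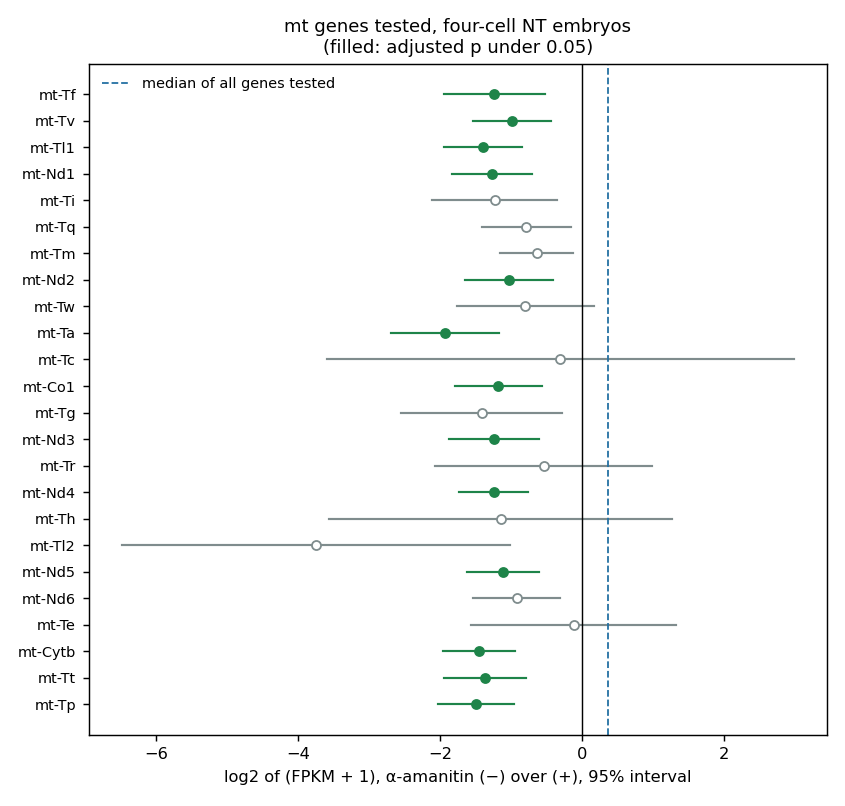
Change of the 24 mt genes tested in four-cell C2C12 NT embryos, as log2 of (FPKM + 1) without over with α-amanitin (horizontal axis) with its 95% interval, genes from top to bottom in genome order. All 24 points lie below 0, the 13 called ones are filled, and the dashed line marks the median of all genes tested, 0.37.

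The proportions among the mRNAs, which no scaling of libraries can alter, overlapped between the groups for all 8 mRNAs with more than 1 read, and no test was run on them. Of the summed FPKM of these 8, mt-Cytb took 39.0% ± 3.40 with and 34.4% ± 6.07 without α-amanitin, and mt-Nd6 took 2.86% ± 0.259 and 3.64% ± 0.685 (SD, n = 3). mt-Nd2 took 14.4% ± 2.28 and 16.8% ± 0.600, and mt-Nd1 took 21.7% ± 3.36 and 21.6% ± 4.13. mt-Nd3, mt-Nd4 and mt-Co1 lie wholly or in part in the copied stretch, so these are proportions of the FPKM listed.

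Between DR and D no mitochondrial gene was called. FPKM were scaled here to the 19 spike-in RNAs found in every library, whose factors ran from 0.0945 in D1 to 5.65 in D5. By limma 0 of 35 members had an adjusted p under 0.05 and 0 an unadjusted one, and over all 14570 genes tested 0% were called, with 88 at an unadjusted p under 0.05. The median log2 change of the members was -1.82, beside -1.41 over all genes tested, and the change of mt-Cytb had an SE of 2.05 and a 95% interval from -5.79 to 2.25 on the log2 scale. On FPKM as deposited, 0 of the 35 were called and 2 had an unadjusted p under 0.05, as had 897 of all genes tested (6.16%). The log2 changes of the members then ran from -0.50 to 0.16, beside a median of 0.02 over all genes, and the 95% intervals of single genes reached from -1.08 to 0.95. The groups did not overlap for 5 tRNAs, mt-Tw, mt-Tc, mt-Tk, mt-Ts2 and mt-Tl2, all higher in D, where 12.2% of all genes tested were apart in either direction and 3.99% with D higher. On the spike-in scale 0 members were apart, against 0.988% of all genes.

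Larger differences lay between libraries of the same group. mt-Co1 had 11206 FPKM in DR2 and 12426 in D4 but 5460 to 7126 in the other 4 libraries. mt-Nd1 had 17138 and 15470 in these 2, against 9257 to 11574. mt-Ts1, the serine tRNA that shares 3 bases with the end of mt-Co1 on the opposite strand, had 7065 and 8784 against 3799 to 4683. In all, 9 of the 35 members were higher in both DR2 and D4 than in each of the other 4 libraries, mt-Co2 and mt-Co3 among them. Another 9 were lower in both, among them mt-Cytb, at 11714 and 11831 against 12312 to 17756, and mt-Nd3, mt-Nd4l, mt-Nd5 and mt-Nd6. Of all 14570 genes tested, 12.1% were higher and 10.7% lower in both libraries than in each of the other 4, so such differences were not limited to mitochondrial genes. The 2 libraries were picked after their values were seen, they come from different groups, and no test was run. The tRNAs with the highest share in this table were mt-Tl1 (5693 to 6432 FPKM), mt-Ts1 and mt-Tm (1635 to 2909 FPKM, the methionine tRNA).

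In the two-cell table mitochondrial sequence was read only through nuclear genes. Whether the mitochondrial chromosome was part of the reference for this table is not given in the sources used here, and reads of mitochondrial RNA and of the nuclear copies cannot be told apart in it. The 7 genes of the chromosome 1 copy took 19.1%, 19.8% and 22.7% of the Am libraries, 36.9%, 40.7% and 37.8% of RAm, 8.26%, 10.1% and 16.0% of NT, and 7.88%, 9.53% and 6.89% of R3, r1 and r2. The share with α-amanitin was above that without it in every library of either set. Group means were 29.5% ± 9.97 with and 9.76% ± 3.24 without α-amanitin (SD, n = 6), and for Am and NT alone 20.6% ± 1.89 and 11.4% ± 4.03 (SD, n = 3).
Other nuclear genes with at least 80% identity to an mt gene over at least 100 bases held a further 2.29% to 12.1% of each two-cell library, but at most 0.253% of a library of the other tables. Gm11410, on chromosome 4, is 92.9% identical to mt-Cytb over 1142 bases. It had 8619 to 45889 FPKM in the two-cell libraries, 3.14 to 6.03 in the replication experiment and at most 0.564 in the four-cell C2C12 table. Levels set across these tables were normalized separately, and no test was run between them.

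Per spike-in RNA, the chromosome 1 copy stood nearly level with and without α-amanitin. Of the spike-ins, 47 had signal in every two-cell library. The ratio of the copy's reads to those of the spike-ins was 2.59, 3.03 and 2.54 in the Am libraries and 2.63, 2.38 and 2.55 in NT. It was 3.28, 4.64 and 3.45 in RAm and 3.23, 3.39 and 2.90 in R3, r1 and r2. Means were 3.26 ± 0.769 with and 2.85 ± 0.401 without α-amanitin (SD, n = 6), with overlap within both sets. Summed myoblast markers lay at 1193 to 2514 FPKM with and 151 to 4481 without α-amanitin and maternal markers at 1540 to 8029 (median 5128) and 7389 to 12336 (median 8525), both with overlap, and their part in these shares was not tested. The ratio to the spike-ins for all other genes was 7.32 ± 2.81 with and 27.8 ± 9.92 without α-amanitin, and these groups were apart. The ratio was 3.81-fold higher without α-amanitin over all 12 libraries, 2.11-fold within NT and Am and 7.06-fold within R and RAm. All other genes here include the other nuclear genes with mitochondrial sequence. With those left out, the ratio was 3.65 to 10.2 with and 11.6 to 37.2 without α-amanitin.

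**Figure D5:**
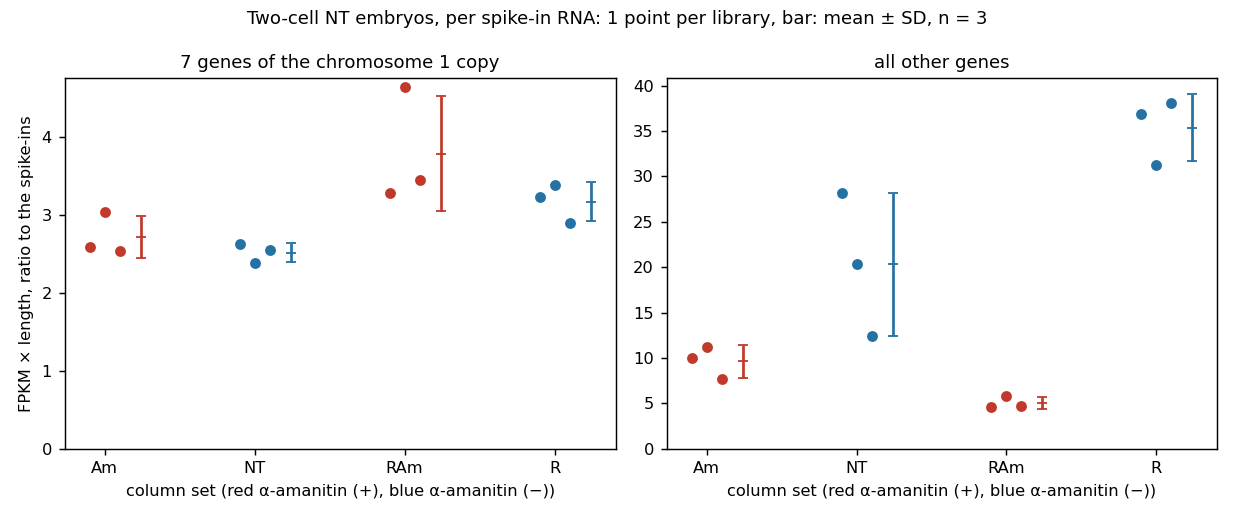
Reads relative to the spike-ins (vertical axis, no unit) in two-cell NT embryos for the 7 genes of the chromosome 1 copy (left) and all other genes (right), 1 point per library with the mean ± SD of each column set (n = 3), α-amanitin (+) in red and (−) in blue. On the left the colours overlap, from 2.38 to 4.64, and on the right the blue points lie above the red ones of their set. The genes on the right include the other nuclear genes with mitochondrial sequence.

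Gene by gene, 0 of the 7 copies were called on the spike-in scale, and 0 of 7 had an unadjusted p under 0.05. Of 17196 genes tested limma called 73%, of which most were higher without α-amanitin (71.4% of all genes tested, against 1.63% lower). The groups overlapped for all 7 copies, while 35.5% of all genes tested were apart, 35.4% with the libraries without α-amanitin higher and 0.14% with those with α-amanitin higher. Within NT and Am 0 of 7 were called, where 4613 of 14285 genes tested were, and within R and RAm 0 of 7, where 12372 of 14387 were. Gm10925, the copy of mt-Atp6, had 97831 to 196741 scaled FPKM with α-amanitin (median 126903) and 85704 to 132784 without it (median 111192). Its log2 change, without over with α-amanitin, was -0.24 (95% interval -0.59 to 0.11, limma adjusted p = 0.199). Gm28438, the copy of mt-Nd3, had 8457 to 14454 with and 11441 to 13541 without α-amanitin, a change of 0.26 (interval -0.21 to 0.73, limma adjusted p = 0.303). For all 7 the intervals stayed between -0.64 and 0.73, while the median change of all genes tested was 1.49. A difference of that change between the column sets was called for no copy by limma's interaction test (0 of 7, against 53.2% of all genes), nor was any copy called between the sets themselves (0 of 7, against 1.23%). The comparison with and without α-amanitin turns on the scale. On FPKM as deposited, where the median of all genes was 0.67, all 7 copies were called higher with α-amanitin, by 2.23-fold (Gm28438) to 3.14-fold (Gm10925), where 8.51% of all genes were called in that direction.

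The nuclear genes that serve mitochondrial RNA were counted in the same fits. In four-cell C2C12 NT embryos, higher calls without α-amanitin were made for 4 of 16 genes of mitochondrial transcription and DNA maintenance tested, 9 of 30 of RNA processing, 3 of 77 ribosomal proteins and 2 of 14 aminoacyl-tRNA synthetases, and lower calls for 0 in each list, where 11.1% of all genes were called higher. Without S7 or S15 0 genes of the 4 lists were called, and without S17 only 1, of RNA processing. Mterf1a, Mterf1b, Twnk, Mrm1 and Gatb stayed under 1 FPKM in every library with α-amanitin and entered the test through the other group alone. Their calls therefore follow in part from the filter. They make up 3 of the 16, 1 of the 30, 0 of the 77 and 1 of the 14 genes tested. Without them 1, 8, 3 and 1 calls are left. Tefm, an elongation factor of POLRMT, had 111 ± 34.7 FPKM without α-amanitin (SD, n = 3) and was 4.97-fold lower with it on the FPKM + 1 scale, a log2 change of 2.31 (SE 0.52, limma adjusted p = 0.0266). Trmt10c, a subunit of the mitochondrial RNase P that cuts tRNAs out of the long RNA, had 46.7 ± 20.9 and 2.40 ± 4.16 FPKM, a change of 4.48 (SE 0.79, limma adjusted p = 0.0132). Trmt61b, a methyltransferase of mitochondrial tRNA, Mrm2, one of mitochondrial rRNA, and Twnk, the mitochondrial DNA helicase, changed by 2.78, 2.61 and 1.90. Mterf1b, of the mitochondrial termination factor family, had 2.39 ± 1.01 FPKM without α-amanitin and was listed at 0 in all 3 libraries with α-amanitin. Of the ribosome, Mrpl50, Mrpl43 and Mrps12 were called, and of the synthetases Wars2 and Gatb, with changes of 1.26 to 1.95. The list medians were, in the order given, 0.50, 1.05, 0.19 and 0.34 beside 0.37 over all genes tested.

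In two-cell NT embryos, higher calls without α-amanitin on the spike-in scale were made for 14 of 17 genes of transcription and DNA maintenance, 23 of 31 of RNA processing, 76 of 77 ribosomal proteins and 12 of 13 synthetases, and lower calls for 0, against 71.4% of all genes. Within NT and Am alone the counts were 10 of 16, 11 of 30, 38 of 77 and 3 of 12, where 4503 of 14285 genes tested were called higher. With the median of ratios over nuclear genes they were 8 of 17, 9 of 31, 28 of 77 and 4 of 13, beside 1, 6, 3 and 1 lower calls. By that scaling 3538 of 17196 genes tested were called higher and 2580 lower. Top1mt, 1 of the 17, and Mrm2, 1 of the 31, entered the test through the libraries without α-amanitin alone. Both are among the 14 and 23 calls, which in their case follow in part from the filter. Tefm had 213 ± 117 scaled FPKM without and 6.69 ± 8.73 with α-amanitin (SD, n = 6), a log2 change of 5.41 (SE 0.80, limma adjusted p = 7.05e-05). Trmt10c changed by 4.48 and Trmt61b by 4.32, followed by Mrm3 (3.65), Mterf3 (3.32) and Twnk (3.22). Of the ribosomal proteins Mrpl20, Mrpl22 and Mrps6 changed most, by 4.79, 4.52 and 4.46. Of the synthetases these were Wars2, Yars2 and Qrsl1, by 2.82, 2.53 and 2.36. The list medians were 2.42, 2.24, 2.72 and 1.49 beside 1.49 over all genes tested. In the replication experiment 0 genes of the 4 lists were called.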

How the data were processed

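FPKM tables were used as the authors deposited them. Per the labels, reads were processed with Trimmomatic, Trim Galore, cutadapt, STAR (mm10) and featureCounts, and versions, strand setting and treatment of reads with several matches are not given in the sources used here. Libraries were assigned to groups by column names, and 4 value columns of the replication table were not used. The Oryx table, which also holds fold changes and p-values of the authors' own comparison, was not used. Values were scaled to spike-ins (median of ratios) where at least 10 of these had signal in every library. A gene entered the test when 3 or more libraries reached an FPKM of 1. The test was the moderated linear model of limma 3.58.1 (R 4.3.3, trended prior variance), and its input was log2(FPKM + 1). On simulated data, without spike-in scaling, it recovered 33% of 4-fold changes in the C2C12 design, 21% in the replication design and 88% in the two-cell design. Of 8-fold changes it recovered 85%, 81% and 100%. Genes were called at a Benjamini-Hochberg adjusted p under 0.05. Fold changes are on the log2(FPKM + 1) scale and understate changes of low genes. Transcripts of GENCODE vM21 were compared with BLAST+ 2.17.0. The study describes the libraries of a group as independent biological replicates, and p-values measure the spread between these pools. Named were all mt mRNAs, the 3 tRNAs with the highest share per table, copies with signal and up to 3 called genes per list and direction. Alternatives changed the pseudocount, filter, scaling, libraries and replicate block. Negative binomial count models were not run, and limma voom was added for the C2C12 table, whose whole reads could be recovered. The members and lists were chosen with earlier results of these data known.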

Additional observations from a re-analysis of the deposited data

Results flagged for a closer look

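Library NT3 stood apart from the other 5 two-cell libraries without α-amanitin in the share of the chromosome 1 copy, at 16.0%, and in the FPKM of Gm10925 (110592) and Gm28437 (40963). RAm2 stood apart among those with α-amanitin in the spike-in scaled FPKM of Gm28661, at 45591. In both cases the gap to the nearest library exceeded the 95% limit of Dixon's test, which chance passes in about 1 of 20 groups, and 32 groups were examined. Leaving out NT3 or RAm2 left 0 of 7 copies called on the spike-in scale.

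On FPKM as deposited, the log2 change without over with α-amanitin differed between the column sets (R and RAm minus NT and Am) for all 7 copies, by limma's interaction test. The difference was -1.34 for Gm28439, -1.18 for Gm10222, -1.22 for Gm28438, -1.38 for Gm28437, -1.37 for Gm10925, -1.39 for Gm28661 and -1.26 for Gm29216, with adjusted p from 0.00253 to 0.0103, where 44.5% of all genes tested passed. On the spike-in scale the same test passed for 0 of 7, with adjusted p from 0.56 to 0.976, and for 53.2% of all genes. Whether the sets are the early and late embryos of the labels was not tested.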

How the results depend on the processing

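In four-cell C2C12 NT embryos, 13 mt genes and 1 copy were called, and 649 genes of the table were also 4-fold changed. Testing all genes with any signal left 4, 0 and 264, and limma voom on the recovered whole reads, chosen after seeing the data, gave 7, 0 and 980. Leaving out 1 library gave 1 to 13 mt genes, 0 to 1 copies and 60 to 889 such genes, with 8 mt genes without S18, 6 without S15, 2 without S17 and 1 without S7, while calls over all genes fell from 1205 to 529, 93, 136 and 63. Every called mt gene was lower without α-amanitin in each of these fits. With the mt genes left out of the library total, 13 were called. The difference in mt share was -8.57 percentage points, -10.1 to -6.32 without 1 library, and -12.4 when FPKM were not multiplied by length.

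In the replication experiment every alternative gave 0 calls, as did leaving out 1 library, and the difference in share, -0.237 points, ran from -0.731 to 0.436. In two-cell NT embryos 5913 genes were called with a 4-fold change on the spike-in scale, 10265 with a pseudocount of 0.1, 1649 with the median of ratios over nuclear genes, 2178 on FPKM as deposited, and 1410 and 9132 within NT and Am and within R and RAm, 4966 to 6754 without 1 library. Copies called were 0, and 0 to 0 without 1 library, but 7 with the median of ratios and 7 on FPKM as deposited. All 7 were called higher with α-amanitin by these 2 scalings, where 2580 and 1464 of 17196 genes tested were called in that direction. Gm28438 and Gm29216 then changed sign, to -2.07 and -2.29 with the median of ratios and -1.15 and -1.38 as deposited. The difference in the copy's share, -19.8 points, was -9.13 within NT and Am, -30.4 within R and RAm, and -21.8 to -17.5 without 1 library.

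Same-numbered two-cell libraries deviated together with correlations of -0.00 to 0.08. These values cannot show whether such libraries share more than a number, as differently numbered pairs were not compared. With these numbers as a replicate block, 5904 genes had a call with a 4-fold change and 0 copies a call. No paired analysis was run for the other tables, whose columns do not carry the labels' numbers in both groups. The planned negative binomial models were not run. In the C2C12 table the 8 members of the copied stretch with at most 1 read allow no comparison.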
